A study of Homo sapiens with 9 samples.

Results

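The subject is the heat shock factors and the proteins that bind them: HSF1, HSF2, HSF4, HSBP1 and HSF2BP. Members were the probe sets whose platform annotation gives 1 of these 5 symbols and no other, which gave 6 of 54675 probe sets. HSF1 and HSBP1 had 2 probe sets each, HSF4 and HSF2BP had 1 each, and HSF2 had 0 in the annotation used and was not analysed here. The cells were U937, an established human lymphoma line with features of monocytes. They were heated for 15 min at 42 °C or 44 °C and returned to 37 °C for 0, 1, 3 or 6 h. The control cells had no treatment by their label. Each of these 9 conditions was measured on 1 Affymetrix U133 Plus 2.0 array, so no replicate, no test and no p-value exists for any value. The 1 control array, which has no time in its label, serves all 8 heated arrays, so an odd signal on it would enter every comparison with control, and recovery time and time in culture are confounded and cannot be told apart.

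Heat shock factors are transcription factors that bind inverted repeats of GAA, the heat shock elements, in front of chaperone genes. HSF1 is the factor required for the heat shock response. In unstressed cells it is held inactive as a monomer by chaperones, and heat turns the existing protein into a DNA-binding trimer, so its activation does not need new HSF1 transcript. HSF2 can join HSF1 in mixed trimers, and HSF4 is best known for its role in the lens. HSBP1 is a small coiled-coil protein that binds the trimer of HSF1 and restrains it. HSF2BP was found as a partner of HSF2 and is known from mouse meiosis, where it brings BRCA2 to sites of recombination. Array signals measure transcript, not protein or its activity.

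Signals are linear intensities, scaled so that each array has a trimmed mean of 100. A floor of 12.5, the median of all scaled values, was set before log2 was taken, and a value is called higher or lower when it differs 2-fold or more. The deposited trimmed means ran from 101 to 211, with the lowest values on the 42 °C arrays at 3 and 6 h, and the ratio of 3′ to 5′ signals was 1.18 to 1.36 for ACTB and 0.939 to 1.13 for GAPDH. Of the monocyte markers LYZ, SPI1, PTPRC, CSF1R and ITGAM were above the floor on all 9 arrays, while CD14, FCGR1A and MPO were below it on all 9. Of the T cell markers CD3E, CD3G and CD8A were below the floor on all 9, while CD2 passed it on 5 arrays (up to 26.3) and CD3D on 2 (up to 13.5). Of the B cell markers CD79A and PAX5 were above it on all 9 at signals of 21.9 to 65.4, and MS4A1 and CD79B passed it on 1 array each. Among markers of epithelium, fibroblasts and erythroid cells, COL1A1 and HBB passed the floor on 7 arrays each and the others on 0. COL1A1, a collagen of fibroblasts, had 34.8, 155, 126 and 268 at 0, 1, 3 and 6 h after 42 °C, 0.297, 35.2, 85.3 and 201 after 44 °C, and 8.37 on the control array. HBB ran from 4.99 to 28.9 on the heated arrays and had 10.4 on the control array. The part of these in the members' values was not tested. As a description of the difference between arrays, the sizes of log2 differences among the 42 °C and 44 °C arrays at 0 h and the control were taken in 10 bins of mean signal. Their 95th percentile was 0.587 in the bin of HSBP1, 0.864 and 1.20 in those of the HSF1 probe sets, and 1.35 in that of HSF2BP. These percentiles include any early response to heat.

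Of the factors and their binding proteins, HSF1 alone passed 2-fold as scaled here, by 1 of its 2 probe sets at 6 h after 42 °C. HSF4 was below the floor throughout, and the other 5 probe sets were above it on all 9 arrays. Over the 12 comparisons, 8 of heated cells with control cells and 4 of 44 °C with 42 °C, those 5 probe sets gave 60 log2 folds. Of these 0 were 2-fold or more higher and 1 was 2-fold or more lower. Over all probe sets above the floor on 1 or both arrays of a pair, 3% of such folds were higher and 3.11% were lower. By comparison, the count was 1 of 5 member probe sets at 6 h after 42 °C and 0 of 5 in the other 11. In either direction, 6.7%, 7.3%, 8.34% and 8.96% of all probe sets were called at 0, 1, 3 and 6 h after 42 °C. After 44 °C the shares were 4.61%, 3.46%, 5.3% and 8.71%, and for 44 °C over 42 °C they were 5.83%, 4.85%, 3.81% and 5.44%. With 5 probe sets a comparison, the members' counts do not stand apart from these shares.

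**Figure D1:**
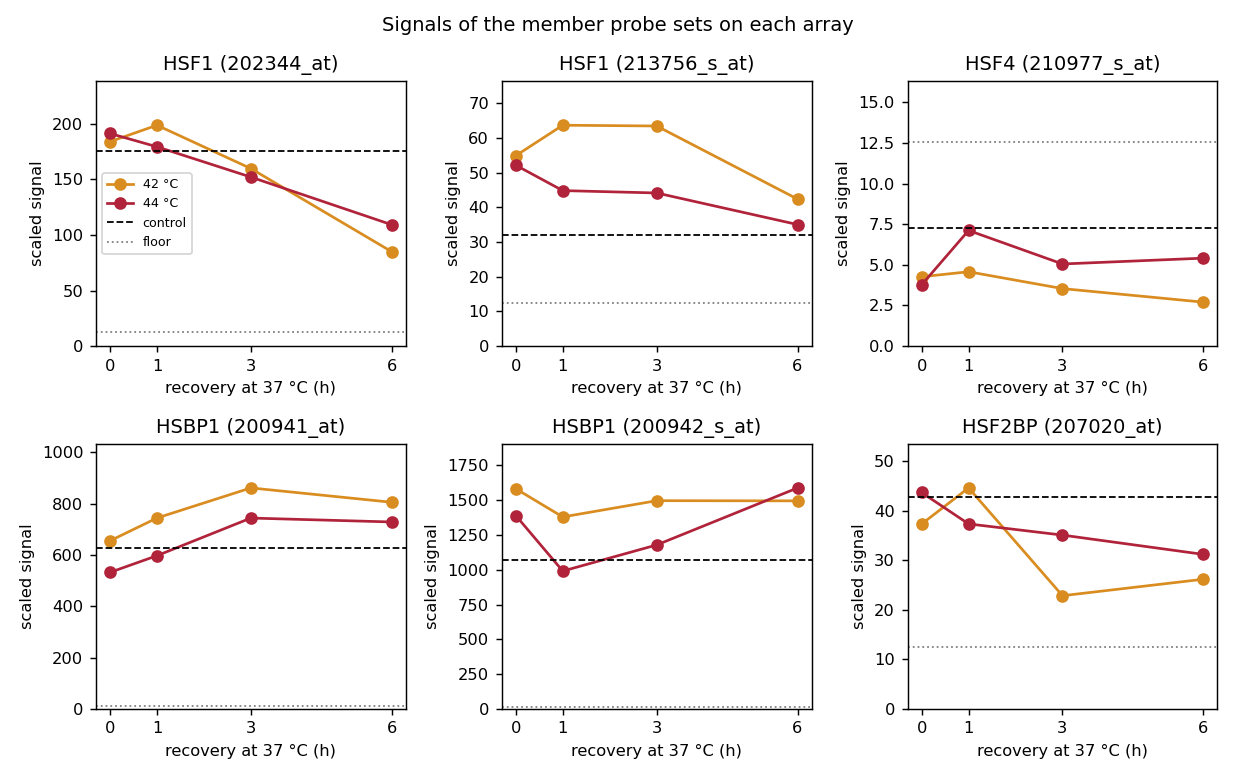
Scaled signal (linear, from 0) of each of the 6 member probe sets against hours of recovery at 37 °C, 1 array per point, with lines for 42 °C and 44 °C, a dashed line for the control array and a dotted line for the floor of 12.5. HSF1 probe set 202344_at ends at 84.9 and 109 at 6 h, under the control at 176, and HSF4 stays under the floor on all arrays.

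HSF1, the main activator of the chaperone genes, was lowest at 6 h of recovery within each temperature by both of its probe sets. Its brighter probe set, 202344_at, had scaled signals of 184, 199, 160 and 84.9 at 0, 1, 3 and 6 h after 42 °C. After 44 °C it had 191, 179, 152 and 109 at the same times, and the control array had 176. The signal thus lay near the control up to 3 h and under it at 6 h at either temperature. Less transcript per cell and fewer cells that hold it cannot be told apart in such RNA of a whole culture.

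At 6 h after 42 °C this probe set was 2.07-fold lower than the control (log2 fold -1.05), the single member call. On that pair of arrays 3.64% of all probe sets above the floor were 2-fold or more lower. The size exceeds the 95th percentile of 0.864 for probe sets of this brightness and not the 99th percentile of 1.37. The log2 fold ran from -1.66 to -1.04 over the other settings of scaling, floor and baseline. At 6 h after 44 °C the log2 fold was -0.69, within the 95th percentile, and it is not a call. Between the 6 h arrays, 44 °C over 42 °C, it was 0.36 as scaled here and 1.18, past 2-fold, without scaling. At the earlier times the log2 folds ran from -0.21 to 0.18. Set against the 0 h array of the same temperature in place of the control, the 6 h signal had a log2 fold of -1.11 at 42 °C and -0.81 at 44 °C. Ordered by signal, the arrays ran from 42 °C at 1 h (199) down to 44 °C at 6 h (109) and 42 °C at 6 h (84.9), and no step between neighbours in this order exceeded the 95th percentile.

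The second HSF1 probe set, 213756_s_at, placed the control elsewhere. It had 54.9, 63.7, 63.5 and 42.4 at 0, 1, 3 and 6 h after 42 °C. After 44 °C it had 52.2, 44.9, 44.2 and 35.1, and the control array had 32.1. All 8 heated arrays were above the 1 control array here, where the brighter probe set had 4 above it and 4 below. The largest log2 folds were 0.99 and 0.98 at 1 and 3 h after 42 °C, just under the 2-fold size, where 4.85% and 3.41% of all probe sets above the floor were called higher. That at 3 h was 1.08 with quantile normalisation, which passed it, 0.91 with a common median and 0.27 without scaling. That at 1 h was 0.90, 0.79 and 0.74 under the same settings. All 8 log2 folds stayed within the 95th percentile of 1.20 for this brightness.

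The 2 probe sets of HSF1 had a Pearson r of 0.44 over the 9 arrays, which share their scaling. Their log2 folds against the control differed by 0.454 to 1.45, the most at 6 h after 42 °C. Between 0 and 6 h both went down: 213756_s_at had a log2 fold of -0.37 at 42 °C and -0.57 at 44 °C for 6 h over 0 h. That direction was kept by both probe sets at both temperatures with quantile normalisation, with scaling to a common median and without scaling. These settings reuse the same arrays. As scaled here, both folds of 213756_s_at were within its 95th percentile of 1.20. For 202344_at, with 0.864, that at 44 °C (-0.81) was within it and that at 42 °C (-1.11) past it. Against the control, both probe sets had positive log2 folds at 0 and 1 h, while at 3 and 6 h their signs differed at both temperatures. Those of 202344_at at 1 h hang on the scaling: with a common median its log2 folds were -0.02 after 42 °C and -0.08 after 44 °C. Without scaling the signs also turned for 202344_at at 1 h after 42 °C (-0.07) and 3 h after 44 °C (0.10), and for 213756_s_at at 6 h after 42 °C (-0.21). A name ending in _s_at marks a probe set that may match several transcripts, and which transcripts 213756_s_at matches was not analysed here.

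HSF4, the lens factor, gave no level in these cells. Its probe set 210977_s_at had scaled signals of 4.27, 4.57, 3.54 and 2.70 at 0, 1, 3 and 6 h after 42 °C. After 44 °C it had 3.77, 7.12, 5.05 and 5.41, and the control array had 7.26. All 9 values are below the floor of 12.5 and have no order, so no fold is given. Of 11 genes known from the lens or as HSF4 targets there, 6 passed the floor somewhere among the 9 arrays and 1 passed it throughout. CRYAB, a small heat shock protein that HSF1 also induces, was below the floor in control cells and at least 13.98-fold higher at 6 h after 44 °C, with a signal of 175. In the 8 comparisons with control the lens list had 0 to 2 genes called higher and 0 called lower, with 3 to 5 of its members above the floor, where 1.37% to 4.08% of all genes were called higher and 0.735% to 4.87% lower. CRYAB was called in each of the 6 comparisons where the list had a call, and 1 further gene was called, at 6 h after 42 °C.

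HSBP1, which restrains the HSF1 trimer, had the smallest range over the arrays of the members above the floor, with fold ranges of 1.62 and 1.60 by its probe sets. It is also the brightest member, and its log2 ranges of 0.70 and 0.68 were past the 95th percentile of 0.587 for its brightness. Those of HSF2BP (0.97) and HSF1 213756_s_at (0.99) were within theirs, 1.35 and 1.20. That of HSF1 202344_at (1.23) was past 0.864. A range takes the extremes of 9 arrays, while the percentiles describe pairs of arrays. The HSBP1 probe set 200941_at had 655, 744, 862 and 806 at 0, 1, 3 and 6 h after 42 °C. After 44 °C it had 532, 597, 744 and 729, and the control array had 627. All 4 arrays at 42 °C and the later 2 at 44 °C were above the control, with log2 folds of -0.24 to 0.46 over the 8 heated arrays. Without scaling the sign turned at 3 and 6 h after 42 °C (-0.25 at both) and at 1 h after 44 °C (0.28).

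The other HSBP1 probe set, 200942_s_at, had 1582, 1380, 1497 and 1495 at 0, 1, 3 and 6 h after 42 °C. After 44 °C it had 1390, 991, 1178 and 1589, and the control array had 1071. Its log2 folds ran from -0.11 to 0.57, and 7 of 8 heated arrays were above the 1 control array. Without scaling the sign turned on the same 3 arrays, with -0.23 and -0.13 at 3 and 6 h after 42 °C and 0.24 at 1 h after 44 °C. None of the 24 log2 folds of the 2 probe sets over the 12 comparisons reached 2-fold, and none exceeded the 95th percentile of 0.587. Over the 9 arrays the 2 probe sets had a Pearson r of 0.43.

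By temperature, HSBP1 was lower at 44 °C than at 42 °C at each of the 4 times by 200941_at, with log2 folds of -0.30, -0.32, -0.21 and -0.14 at 0, 1, 3 and 6 h. By 200942_s_at they were -0.19, -0.48, -0.34 and 0.087. These differences are under the 95th percentile of 0.587, which is not a spread of replicates and which the 0 h pair itself helped to set. They hang on the scaling. With a common median 200941_at had 0.19 at 6 h, and without scaling it had 0.28, 0.81 and 0.67 at 1, 3 and 6 h.

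HSBP1L1, the relative of HSBP1 with a probe set of its own, was 2.12-fold higher at 1 h and 2.01-fold higher at 3 h after 42 °C. Its signals were 110 and 105 against 52.0 in control cells. On those pairs of arrays 3.01% and 3.13% of all genes were called higher. The HSBP1L1 log2 folds were 1.08 and 1.01, where the 95th percentile for its brightness was 1.02. At the other 6 conditions its log2 fold ran from 0.038 to 0.82. HSF5, another gene of the factor family, was below the floor on all 9 arrays.

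HSF2BP, the meiotic partner of BRCA2, had a signal that was lowest late after 42 °C. Its probe set 207020_at had 37.3, 44.6, 22.8 and 26.2 at 0, 1, 3 and 6 h after 42 °C. After 44 °C it had 43.7, 37.3, 35.1 and 31.2, and the control array had 42.7. The log2 folds against the control were -0.90 at 3 h and -0.71 at 6 h after 42 °C, where 4.93% and 3.64% of all probe sets were called lower, and neither is a call as scaled here. They were -0.84 and -0.82 with quantile normalisation and -0.98 and -0.97 with a common median. Without scaling they were -1.61 and -1.31, both past 2-fold.

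After 44 °C the HSF2BP log2 folds against the control ran from -0.45 to 0.033. Over 42 °C, the 44 °C array had log2 folds of 0.62 at 3 h and 0.25 at 6 h, and of 1.64 and 1.07 without scaling. As scaled here all 12 folds lay within the 95th percentile of 1.35 for this brightness. The 42 °C arrays at 3 and 6 h, where HSF2BP was lowest, also had the lowest deposited trimmed means (101 and 109). The brighter HSF1 probe set was low on that at 6 h (84.9) but near the control at 3 h (160 against 176). A link between signal and array level was not tested. Of 7 measured genes that act with HSF2BP in recombination, 5 or 6 were above the floor in each comparison. Of these 0 were called higher and 0 lower in any of the 12 comparisons, and their median log2 fold ran from -0.058 to 0.16 over the 8 comparisons with control. With 5 or 6 genes, a count of 0 does not stand apart from the shares called among all genes. BRCA2 itself had no probe set assigned to it alone.

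**Figure D2:**
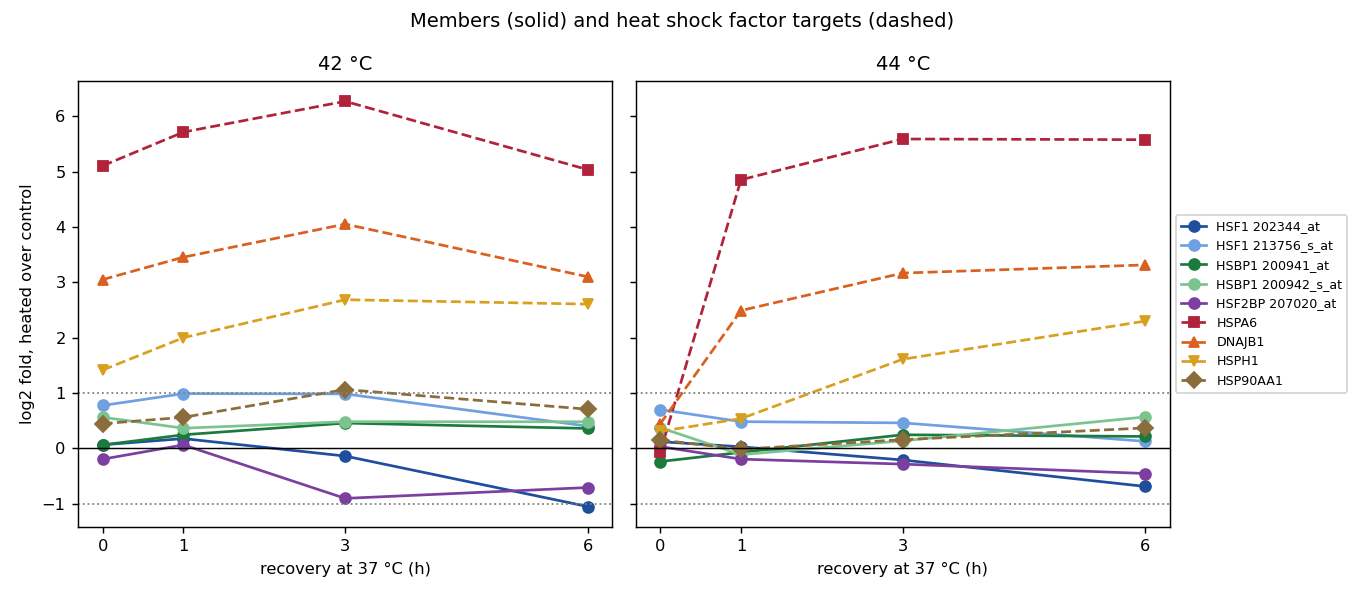
Log2 fold of heated over control cells against hours of recovery, 1 array per point, for 42 °C (left) and 44 °C (right), with solid lines for 5 member probe sets, dashed lines for 4 targets of the factors and dotted lines at 2-fold. HSPA6 passes a log2 fold of 6 at 3 h after 42 °C (6.27) while the member probe sets stay between -1.05 and 0.99.

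Most measured genes that heat shock factors induce were called higher at each time after 42 °C. Of 27 such target genes 15, 17, 19 and 20 were called higher at 0, 1, 3 and 6 h, and 0 were called lower at any time. Over all genes above the floor on those pairs 1.48%, 3.01%, 3.13% and 4% were called higher. The target list had median log2 folds of 1.06, 1.37, 1.91 and 1.70. All probe sets above the floor on 1 or both arrays had medians of -0.019, 0.037, -0.017 and 0.049. Without scaling the median of the target list was 1.20 at 3 h and 1.09 at 6 h, and with quantile normalisation it was 1.51 at 3 h. After 44 °C the counts were 0, 8, 15 and 18, with medians of 0.13, 0.38, 1.15 and 1.64. Over all genes 1.37%, 1.49%, 1.9% and 4.08% were higher at those times.

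The target genes were chosen with earlier results of these arrays known, so these counts are a description beside the factors. HSPA6, a strictly stress-induced HSP70, had 4526 to 10655 on the 42 °C arrays, 131 at 0 h and 3989 to 6647 later after 44 °C, and 138 on the control array. DNAJB1, its HSP40 partner, was 16.6-fold higher at 3 h after 42 °C and 9.95-fold higher at 6 h after 44 °C. HSPH1, an HSP110 exchange factor, reached 6.44-fold and 4.92-fold at those same arrays, and HSPB1, a small heat shock protein, 4.12-fold and 3.10-fold.

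BAG3, an HSP70 partner, reached 29.1-fold at 3 h after 42 °C, and IER5, an early gene whose product is reported to act on HSF1, reached 12.7-fold. HSP90AA1, the inducible HSP90, passed 2-fold on the 42 °C array at 3 h alone (2.09-fold) by the probe set used. Its probe set 211968_s_at also passed it at 6 h, with log2 folds of 1.37 after 42 °C and 1.03 after 44 °C. At 0 h after 44 °C, where HSF1 had log2 folds of 0.12 and 0.70 by its probe sets, HSPA6 had -0.074 and BAG3 -0.17. At 0 h after 42 °C, where HSF1 had 0.065 and 0.78, they had 5.10 and 3.18. The difference between temperatures at 0 h was thus -5.18 for HSPA6 and 0.057 and -0.074 for HSF1, as log2 folds of 44 °C over 42 °C.

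The promoters of a member and of 2 targets are printed to show where the letters that heat shock factors read are present or absent. Each run is the 250 bases before the RefSeq start of the gene on GRCh38.p14, 5′ to 3′ on the gene's own strand, with capitals for the paired repeats GAANNTTC and TTCNNGAA. These motifs read the same on both strands. A triple repeat, GAANNTTCNNGAA or its reverse complement TTCNNGAANNTTC, holds both pairs, which overlap.
HSBP1, chr16:83807728-83807977, plus strand: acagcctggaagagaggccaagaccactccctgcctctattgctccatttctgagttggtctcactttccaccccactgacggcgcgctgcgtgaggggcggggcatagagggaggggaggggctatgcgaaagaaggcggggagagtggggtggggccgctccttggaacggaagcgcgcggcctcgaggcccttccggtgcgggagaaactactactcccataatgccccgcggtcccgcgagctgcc
HSPA6, chr1:161524290-161524539, plus strand: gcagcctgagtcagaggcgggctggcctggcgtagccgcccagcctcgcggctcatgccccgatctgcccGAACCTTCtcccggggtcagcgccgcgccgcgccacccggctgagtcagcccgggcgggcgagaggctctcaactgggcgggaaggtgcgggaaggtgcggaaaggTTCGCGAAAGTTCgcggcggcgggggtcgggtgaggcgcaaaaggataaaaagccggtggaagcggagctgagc
DNAJB1, chr19:14518398-14518647, minus strand: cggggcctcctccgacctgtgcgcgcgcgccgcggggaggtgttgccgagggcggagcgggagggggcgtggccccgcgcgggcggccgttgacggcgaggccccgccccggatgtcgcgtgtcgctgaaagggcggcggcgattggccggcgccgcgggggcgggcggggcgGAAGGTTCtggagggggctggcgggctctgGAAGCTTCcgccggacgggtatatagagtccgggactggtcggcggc

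HSPA6 holds a triple repeat 74 to 62 bases before the start and a further pair 180 to 173 bases before it. DNAJB1 holds pairs 77 to 70 and 47 to 40 bases before the start in the window printed. That window was picked because it is the only 1 of the 3 DNAJB1 windows that holds a pair. HSBP1 holds none in its 1 window. In the RefSeq table there are 35116 such windows, of which 11.6% hold a pair and 0.441% a triple. Of the 27305 genes they belong to, 14.0% hold a pair in 1 or more windows and 0.557% a triple. Of the members HSBP1, HSF2 and HSF4 have windows there, 5 in all, and 0 hold a pair. Of 28 target genes with a window 19 hold a pair in 1 or more windows and 8 a triple, read from a list chosen as targets. BAG3 and HSPH1, which rose, have no pair in theirs. A match is a description of letters and does not show that a factor binds there, and a window without one says only that these letters are not in it.

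Of 31 measured genes whose products bind, modify or restrain HSF1, 1, 1, 3 and 2 were called higher at 0, 1, 3 and 6 h after 42 °C, where the shares of all genes given above were 1.48% to 4%. After 44 °C 0, 2, 2 and 1 were, where those shares were 1.37% to 4.08%. In each of the 8 comparisons 0 or 1 was called lower, and of all genes 3.84%, 2.43%, 4.87% and 3.68% were lower after 42 °C and 1.66%, 0.735%, 2.3% and 4.3% after 44 °C. The median log2 fold of the list ran from -0.12 to 0.11. Of the genes called, DNAJB1, HSP90AA1 and HSP90AB1 are also on the target list. DNAJB1 was called higher in 7 of those 8 comparisons. HSP90AA1 and HSP90AB1 were each called in 1 of the 12, HSP90AA1 as higher at 3 h after 42 °C. Besides DNAJB1, SYMPK and MAPK3 were the genes called in 3 or more of the 12 comparisons.

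SYMPK, a scaffold of 3′ end processing that binds HSF1, was 2.59-fold lower at 0 h and 2.48-fold lower at 1 h after 42 °C, and 2.28-fold lower at 3 h after 44 °C, by its brightest probe set, 1554595_at. At 0 h that probe set had 224 after 44 °C and 51.6 after 42 °C, 4.33-fold higher at 44 °C. Its probe set 32402_s_at had log2 folds of -0.049, 0.12, -0.37 and 0.27 in these 4 comparisons, and 202339_at had 0.30, 0.60, -0.21 and 0.11, so the probe sets do not share the change. MAPK3, the kinase ERK1 that phosphorylates HSF1, was 2.00-fold higher at 3 h and 2.77-fold higher at 6 h after 42 °C, and 2.02-fold higher at 3 h after 44 °C. Its signal on those arrays was 81.9, 113 and 82.7, against 40.9 in control cells, by its 1 probe set, whose name ends in _x_at, the mark of probes that may also match other genes. The MAPK3 log2 folds were 1.00, 1.47 and 1.02 in that order, where the 95th percentile for its brightness was 1.20.

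**Figure D3:**
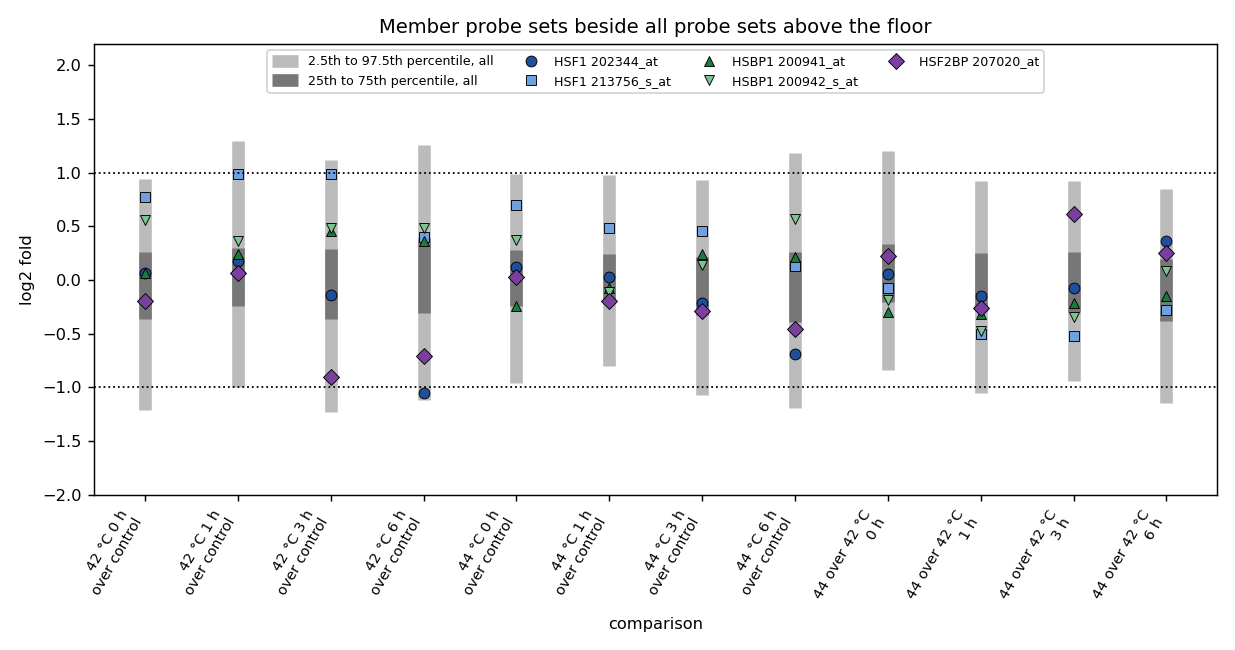
Log2 fold of 5 member probe sets (coloured symbols) in each of the 12 comparisons, over grey bars for the 25th to 75th and the 2.5th to 97.5th percentiles of all probe sets above the floor on 1 or both arrays, with dotted lines at 2-fold. All member values lie within the wider bars, the lowest being HSF1 202344_at at -1.05 for 42 °C at 6 h, where the bar ends at -1.12.

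The members were also set against all probe sets above the floor, bright and dim ones together. The 2.5th to 97.5th percentiles of all log2 folds were -1.12 to 1.25 at 6 h after 42 °C and -0.80 to 0.98 at 1 h after 44 °C. All 60 member folds lay within those limits in their own comparison. The lowest, -1.05 for HSF1 202344_at at 6 h after 42 °C, was near its limit. It was past the 95th percentile of 0.864 for probe sets of its own brightness, the only 1 of the 60 folds past its own. That percentile was taken from the 0 h and control arrays alone. At 3 h after 42 °C the members reached from -0.90 for HSF2BP to 0.98 for HSF1 213756_s_at, with a median of 0.46 where all probe sets had -0.017. At 1 h after 44 °C they reached from -0.19 to 0.48, with a median of -0.071 against 0.016.

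Of the member probe sets, HSF1 202344_at alone had a range of log2 signal of 1 or more over the 9 arrays (1.23), and the genes most like it were sought among 9910 genes above the floor on all arrays. The highest Pearson r of log2 signal over the 9 arrays was 0.979 for BLTP2. It was 0.975 for C16orf74 and 0.973 for MYB, a transcription factor of immature blood cells. In all 147 genes had an r of 0.9 or more, so these 3 are the top of a long list. The arrays share their scaling, and r rests on the pair of 6 h arrays. Without these r was 0.706, 0.844 and 0.701 over 7 arrays, and the genes ranked 543, 126 and 571. With quantile normalisation over all 9 arrays r was 0.969, 0.975 and 0.841, and MYB ranked 393. MYB had 2324 at 6 h after 42 °C and 2772 at 6 h after 44 °C, against 3921 in control cells, and BLTP2 had 400 and 463 against 601.

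**Figure D4:**
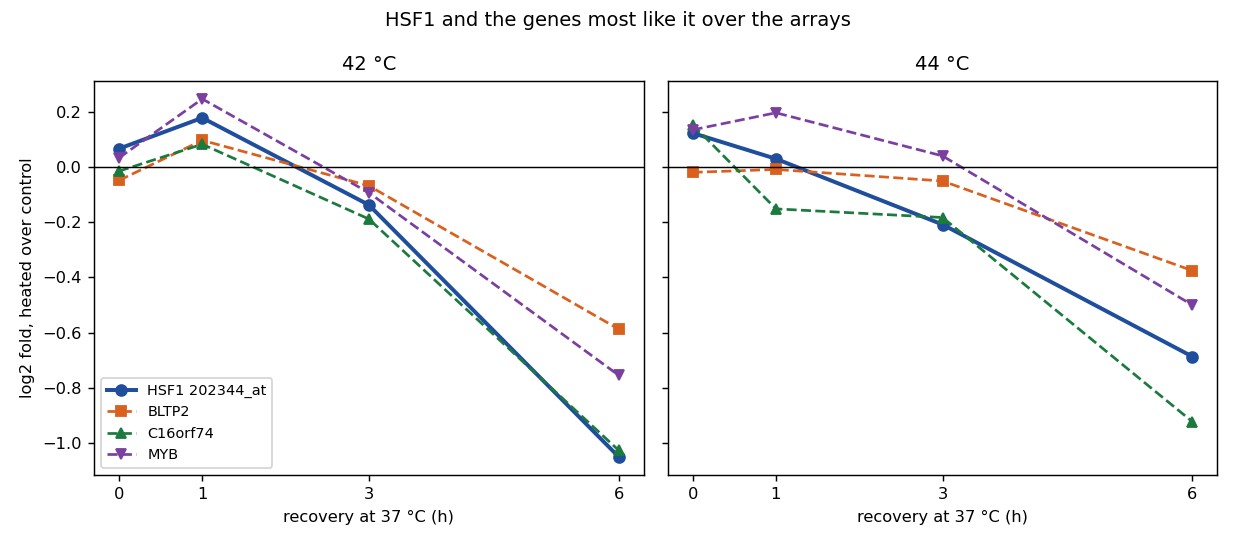
Log2 fold of heated over control cells against hours of recovery for HSF1 probe set 202344_at (solid) and the 3 genes with the highest Pearson r to it (dashed), 1 array per point, 42 °C left and 44 °C right. All 4 lines are lowest at 6 h, with HSF1 at -1.05 and -0.69.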

How the data were processed

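U937 RNA was measured on 9 arrays, 1 per condition, grouped by the treatment labels. The values deposited are linear intensity values per probe set, made with MAS5 per the submitters' processing notes. The scaling target and detection calls are not given in the sources used here. Total RNA was column-purified and DNase-treated, and labelled by 3′ amplification, per the labels' protocols.

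Arrays were brought to a 2% trimmed mean of 100, by factors of 0.474 to 0.989, over 54613 probe sets without the 62 controls. The 50th percentile of all scaled values (12.5) served as a floor before log2, which makes folds of dim genes bounds. Of all probe sets 1801 carry several symbols and 11777 none, and these were not named. Symbols come from the platform annotation, of which 41037 of 41091 matched a RefSeq gene number. Other genes are given by their brightest probe set over the arrays (19775 genes). A difference of 2-fold was called, with no test. Python 3.11.15, numpy 2.4.6 and pandas 2.3.3 were used.

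Named genes were all member probe sets, 7 targets, binders past 2-fold in 3 or more comparisons, the 3 genes most like a member that ranged over 1 log2 unit, and BRCA2, CRYAB, HSF5 and HSBP1L1. Members and lists were chosen with earlier results of these data known. Alternatives were the scaling, the floor, the baseline and the probe set of a gene. Number of arrays limits precision.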

Additional observations from a re-analysis of the deposited data

How the results depend on the processing

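Of the 72 member log2 folds, those of HSF4 included, 71 kept their side of 2-fold with quantile normalisation, 72 with scaling to a common median, 70 with a floor at the 25th percentile and 72 with one at the 60th. Without scaling, where the deposited levels differ between arrays, 67 did, and against the 0 h array 36 of 36 did. The sign turned for 3 with quantile normalisation, 8 with a common median, 24 without scaling, 0 with either floor and 10 of 36 against the 0 h array. The members called higher numbered 0 as reported, 1 with quantile normalisation and 3 without scaling. Those called lower numbered 1 as reported, 3 without scaling and 3 with a floor at the 25th percentile, where 2 are HSF4 at levels below the floor used. Over the 12 comparisons the binders of HSF1 had 20 calls, and 54 without scaling. The recombination list had 0, against 6 without scaling and 3 with that lower floor, and the lens list had 8, against 36 there. Of 48 medians of gene lists, 46 moved by less than 0.25 on the log2 scale with quantile normalisation, 42 with a common median, 23 without scaling, 43 and 40 with the lower and higher floor, and 46 with the median over a gene's probe sets, and against the 0 h array 14 of 24 did. The median of the target genes for 44 °C over 42 °C at 3 h was -0.68 as reported and 0.34 without scaling. Other scalings moved the median log2 fold of all probe sets above the floor by -0.11 to 0.11 (quantile), -0.26 to 0.33 (common median) and -0.71 to 1.02 (none). The cause of each change was not tested beyond what these settings do by construction. No replicate could be left out and no paired analysis was possible because each condition has 1 array.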
